A study of Homo sapiens with 12 samples.

Results

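MicroRNAs (miRNAs) that biologists connect with the tumour suppressor p53 were followed through small RNA libraries of cells rescued with different forms of DICER, the enzyme that cuts miRNA precursors into mature miRNAs. The members were chosen by name: hsa-miR-34a-5p, hsa-miR-34a-3p, hsa-miR-192-5p, hsa-miR-192-3p, hsa-miR-194-5p, hsa-miR-194-3p, hsa-miR-215-5p and hsa-miR-145-5p (written below without hsa, for human), which make 8 of the 1971 miRNA names in the tables, and all 8 were listed in both cell lines. The study made 12 libraries in 6 groups of 2 replicates by AQ-seq, a small RNA sequencing method designed to reduce adapter ligation bias. The lines were HCT116, which comes from a human colorectal carcinoma, and HEK293T, which comes from human embryonic kidney. Each was rescued with wild-type DICER (WT), with DICER lacking its double-stranded RNA binding domain (ΔdsRBD), or with a form labelled AA. The labels do not say what AA stands for, how much DICER each rescue made, or whether the cells came from a single clone. DICER, p53 and protein-coding transcripts are not measured in small RNA libraries, so neither the rescue nor the link to p53 could be checked in these data.

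As background, p53 is a transcription factor that answers DNA damage and other stress, and MIR34A is among its best known direct miRNA target genes. miR-34a-5p lowers cyclin-dependent kinase, MYC-pathway and anti-apoptotic transcripts and is known for arresting growth. MIR192, MIR194 and MIR215 are also raised by p53 and are abundant in gut, liver and kidney, while miR-145 is linked to p53 mainly through the cropping of its primary transcript by DROSHA. HCT116 is known to keep wild-type p53, and HEK293T carries the SV40 large T antigen, which binds p53. DICER receives the hairpin that DROSHA leaves, cuts near the loop and releases a duplex of a 5p and a 3p strand, of which Argonaute usually keeps the one named as the guide. Its double-stranded RNA binding domain touches the stem close to where the cut falls.

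The mature sequences are shown because members fall into seed families, which share predicted targets and whose reads can be hard to tell apart. They were taken from RefSeq (GRCh38.p14), where 8 of 8 members matched. Capitals mark the seed, bases 2 to 8 from the 5′ end.

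miR-34a-5p: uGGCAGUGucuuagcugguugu
miR-449a: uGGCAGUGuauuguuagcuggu
miR-449b-5p: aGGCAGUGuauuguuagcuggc
miR-34b-5p: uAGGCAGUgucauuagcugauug
miR-34a-3p: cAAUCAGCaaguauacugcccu
miR-192-5p: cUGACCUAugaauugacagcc
miR-215-5p: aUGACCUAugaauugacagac
miR-192-3p: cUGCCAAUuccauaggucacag
miR-194-5p: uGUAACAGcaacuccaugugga
miR-145-5p: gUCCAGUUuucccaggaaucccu

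miR-34a-5p shared the seed GGCAGUG with miR-449a and miR-449b-5p, which are not members. miR-192-5p and miR-215-5p shared the seed UGACCUA and were identical at 19 of 21 positions, differing by C1A and C20A (the base of miR-192-5p first, positions counted from 1 at the 5′ end). The sources used here do not say how reads matching several names were counted, so the values of miR-192-5p and miR-215-5p may share reads. miR-194-5p is made with the same sequence from 2 hairpins on different chromosomes, and its reads cannot be assigned to either.

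The hairpins are shown because their arms and loops are what DICER meets. Capitals mark the mature arms listed in the table.

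MIR34A: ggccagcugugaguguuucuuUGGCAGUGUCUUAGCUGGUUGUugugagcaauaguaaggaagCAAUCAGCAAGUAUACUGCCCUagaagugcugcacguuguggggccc
MIR192: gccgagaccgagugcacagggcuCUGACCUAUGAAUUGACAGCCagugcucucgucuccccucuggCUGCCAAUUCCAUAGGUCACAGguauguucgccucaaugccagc
MIR194-2: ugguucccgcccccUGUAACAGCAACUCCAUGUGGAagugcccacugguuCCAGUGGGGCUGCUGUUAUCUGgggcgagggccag
MIR215: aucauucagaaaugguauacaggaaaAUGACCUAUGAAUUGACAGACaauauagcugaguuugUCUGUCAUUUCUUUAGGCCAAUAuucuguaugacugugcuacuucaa
MIR194-1: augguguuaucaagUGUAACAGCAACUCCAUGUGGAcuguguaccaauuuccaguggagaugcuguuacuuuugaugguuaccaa

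On GRCh38, MIR34A lies at chr1:9151668-9151777 on the minus strand, in an exon of the long noncoding RNA gene MIR34AHG on the same strand (GENCODE v29). MIR192 at chr11:64891137-64891246 and MIR194-2 at chr11:64891355-64891439, both on the minus strand, lie 108 bases apart in an exon of MIR194-2HG on the same strand. MIR215 at chr1:220117853-220117962 and MIR194-1 at chr1:220118157-220118241, also on the minus strand, lie 194 bases apart within an intron of IARS2, which is on the opposite strand. MIR145 at chr5:149430646-149430733 on the plus strand lies in an intron of the long noncoding RNA gene CARMN on the same strand. The stretch between the mature arms was 20 bases in MIR34A, 22 in MIR192, 14 in MIR194-2, 16 in MIR215 and 15 in MIR145. In the minimum free energy fold of the whole hairpin (ViennaRNA), 2 of the 22 bases of miR-34a-5p and 2 of the 21 of miR-192-5p were unpaired. The counts were 3 of 22 for miR-194-5p in either of its hairpins, 4 of 21 for miR-215-5p and 4 of 23 for miR-145-5p.

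Library depth ranged from 824987 to 4498886 miRNA reads, and the ΔdsRBD libraries were the shallowest of HCT116 (824987 and 1353117) and of HEK293T (1059778 and 1226813). Levels are given as counts per 1000000 reads (CPM), scaled within a line by TMM, which takes the typical miRNA as unchanged. A read stands for a whole mature miRNA, so no division by length was made. ΔdsRBD libraries held 27.2 to 64.7 miRNA reads per read of the 30 spike-in RNAs, against 80.9 to 367 in WT libraries, and a second scale built on the spike-ins is described below. Differences are log2 fold changes ± SE from edgeR's quasi-likelihood test, and a miRNA is said to have risen or fallen where the Benjamini-Hochberg adjusted p over all names tested was below 0.05. The p-values rest on a spread estimated over all libraries of a fit and moderated across names. A very small value therefore does not show that the 2 libraries of a group lie close together. The labels do not tie these libraries to separate cultures. In bulk RNA, fewer cells making a miRNA and fewer copies per cell cannot be told apart.

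With WT DICER, miR-34a-5p was by far the most abundant member in both lines. It stood at 7915 and 8582 CPM in the 2 HCT116 libraries, ranks 26 and 23 among 1854 names, and at 22501 and 26635 CPM in HEK293T, rank 8 in each library. In HCT116 the order went on with miR-145-5p (979 and 985 CPM), miR-194-5p (272 and 287 CPM), miR-34a-3p (197 and 253 CPM) and miR-192-5p (149 and 166 CPM), each neighbour separate from the next. The remaining 3, miR-192-3p (7.30 and 1.20 CPM), miR-194-3p (2.77 and 1.81 CPM) and miR-215-5p (2.52 and 1.20 CPM), rested on 4 to 29 reads a library and overlapped. HEK293T had another order: after miR-34a-5p came miR-194-5p (1005 and 1256 CPM), miR-192-5p (645 and 643 CPM), miR-215-5p (251 and 276 CPM) and miR-34a-3p (192 and 215 CPM), again without overlap. miR-145-5p (9.56 and 11.1 CPM), miR-192-3p (10.3 and 9.06 CPM) and miR-194-3p (8.15 and 10.2 CPM) were the lowest there and overlapped.

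**Figure D1:**
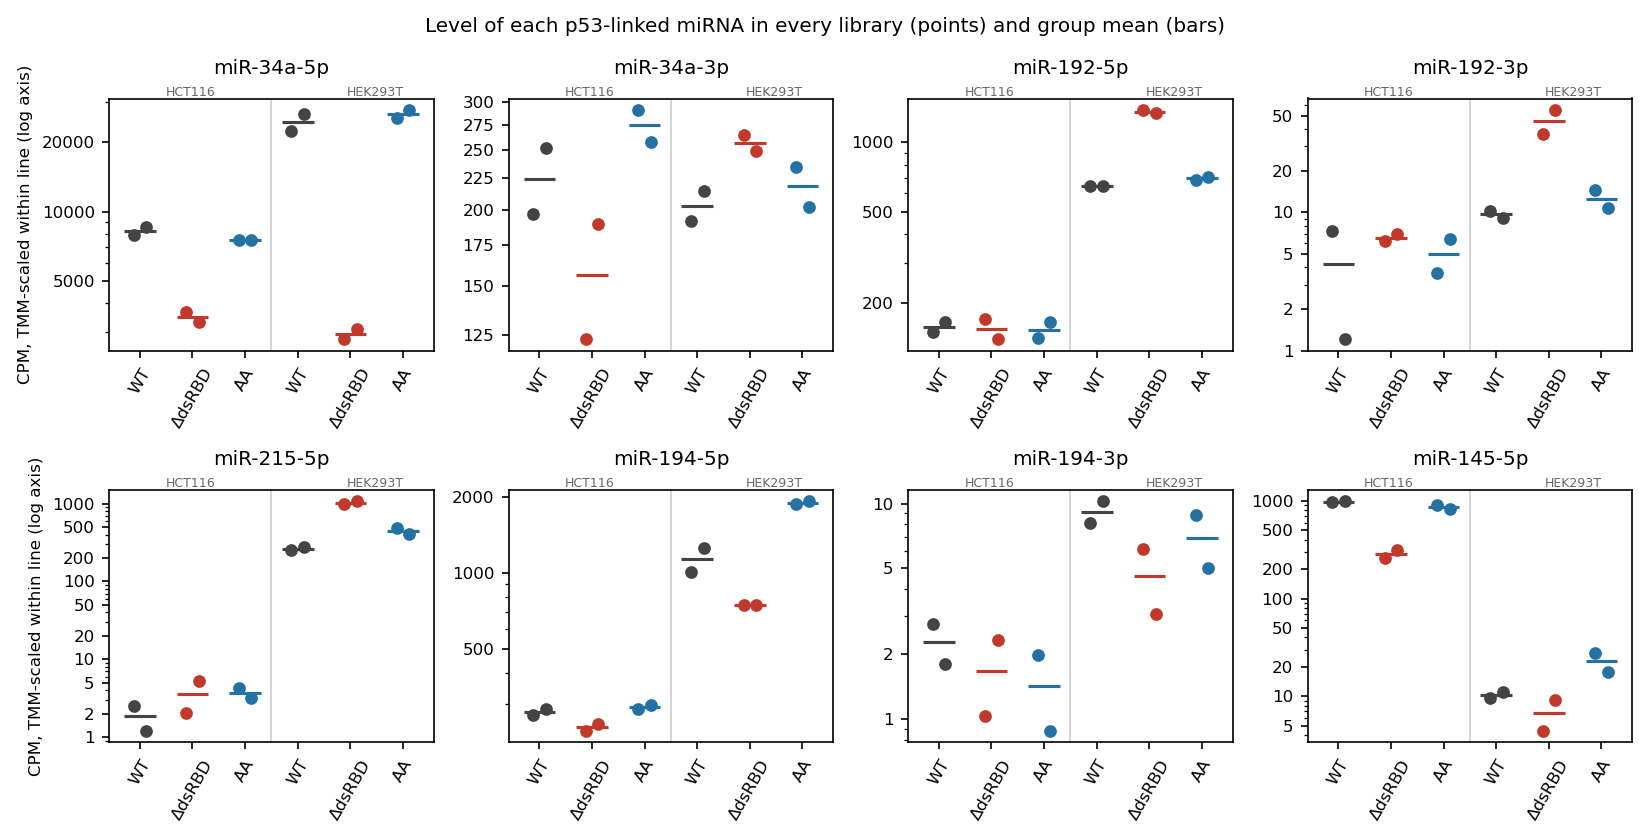
Level of each member in the 12 libraries, as CPM scaled within a line on a log axis; points are libraries, bars are group means of 2, grey is WT, red ΔdsRBD and blue AA, with HCT116 on the left and HEK293T on the right of each panel. miR-34a-5p is lowest in the ΔdsRBD libraries of both lines, and miR-192-5p, miR-192-3p and miR-215-5p are highest in those of HEK293T.

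Between the lines with WT DICER, 5 of 8 members were higher and 1 was lower in HEK293T, in a comparison in which 73.2% of the 844 names tested differed (32% higher, 41.2% lower) and 87.3% did not overlap. miR-215-5p had 709 and 945 reads in HEK293T and 10 and 4 in HCT116, 130-fold more on the scale of both lines (log2 7.02 ± 0.31, adjusted p = 3.59e-15). miR-145-5p went the other way, with 27 and 38 reads in HEK293T and 3891 and 3273 in HCT116, 97.3-fold less (log2 −6.60 ± 0.27, adjusted p = 6.35e-16). The ranges of the lines lay far apart for both miRNAs. miR-34a-5p was 2.89-fold higher in HEK293T (log2 1.53 ± 0.18, adjusted p = 5.61e-08), and miR-192-5p and miR-194-5p were each 3.94-fold higher (adjusted p = 2.36e-09 and 3.39e-09). miR-34a-3p did not pass the test (log2 −0.19 ± 0.21, adjusted p = 0.411), and its libraries overlapped between the lines. Per spike-in read only 1 member was higher and 2 were lower: miR-215-5p kept its direction (log2 5.43), while miR-34a-5p stood at −0.15 and did not pass the test (adjusted p = 0.612). All names shifted on that scale, from a median of −0.39 to −2.02.

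The question put to the DICER forms was what the loss of the double-stranded RNA binding domain does to miRNA output. Against WT, ΔdsRBD changed 2 of 7 tested members in HCT116, both lower, where 62.1% of the 795 names tested changed (28.1% higher, 34.1% lower). In HEK293T 3 of 8 members rose and 2 fell, where 75.6% of 626 names changed (35.9% higher, 39.6% lower), so the share of members called was near or below that of all names. Per spike-in read the split was 0 higher and 5 lower among the members in each line, and among all names 0.9% higher and 75.2% lower in HCT116 and 9.6% and 61.7% in HEK293T.

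miR-34a-5p fell with ΔdsRBD in both lines. In HCT116 it dropped from 7915 and 8582 CPM with WT to 3664 and 3330 CPM, and in HEK293T from 22501 and 26635 CPM to 2784 and 3078 CPM. The groups did not overlap in either line, which held for 82.5% of names in HCT116 and 89% in HEK293T. The rank fell from 26 and 23 to 44 and 44 in HCT116 and from 8 to 38 and 37 in HEK293T. The fall was 2.36-fold in HCT116 (log2 −1.24 ± 0.11, adjusted p = 4.49e-06) and 8.38-fold in HEK293T (log2 −3.07 ± 0.18, adjusted p = 9.65e-08). With WT DICER the level in HEK293T exceeded that in HCT116, whereas with ΔdsRBD the means on the TMM scale of both lines were 3217 ± 180 CPM in HEK293T and 3219 ± 325 CPM in HCT116 (SD, n = 2). Other scales set the lines apart with ΔdsRBD. Without TMM the level was 4303 and 4246 CPM in HCT116 and 2976 and 3278 CPM in HEK293T, and per 1000 spike-in reads it was 274 and 274.7 against 86.7 and 89.3, lower in HEK293T without overlap on both.

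miR-34a-3p, the passenger strand cut from the same hairpin, was not called by edgeR on the TMM scale in either line, and its result depended on the tool and the scale. Its levels in HEK293T were 192 and 215 CPM with WT and 265 and 249 CPM with ΔdsRBD (log2 0.34 ± 0.18, adjusted p = 0.112), but per 1000 spike-in reads 16.0 and 16.7 with WT and 8.24 and 7.24 with ΔdsRBD, a fall (log2 −1.11, adjusted p = 0.0012). With library totals and with upper-quartile factors edgeR called it higher in HEK293T, where 37.5% and 43.9% of all names were higher. In HCT116 its levels were 197 and 253 CPM with WT and 123 and 190 CPM with ΔdsRBD (log2 −0.50 ± 0.21, adjusted p = 0.0575). There the DESeq2 Wald test (log2 −0.56, adjusted p = 0.0344), edgeR with DESeq2 size factors (adjusted p = 0.0378) and edgeR per spike-in read (log2 −2.31, adjusted p = 2.30e-16) called it lower. The TMM-scaled groups were separate in both lines, which held for 82.5% of names in HCT116 and 89% in HEK293T.

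The share of the 3p arm within a library does not depend on the scale. Of all miR-34a reads, 3p reads were 0.845% (95% exact binomial interval 0.775% to 0.918%) and 0.799% (0.742% to 0.859%) in the HEK293T WT libraries. With ΔdsRBD they were 8.69% (7.77% to 9.67%) and 7.50% (6.73% to 8.32%). Both ΔdsRBD shares lay far above both WT shares, and the ratio of 3p to 5p reads rose by 3.41 ± 0.21 on the log2 scale (edgeR test of arm by group, adjusted p = 3.01e-11). Intervals cover counting error only, since reads without molecular identifiers are not independent molecules. In HCT116 the shares were 2.43% and 2.86% with WT and 3.24% and 5.39% with ΔdsRBD, a smaller rise (log2 0.73 ± 0.21, adjusted p = 0.0047) that did not pass the test without ΔdsRBD replicate 2 (log2 0.31, adjusted p = 0.213) or without WT replicate 1 (log2 0.61, adjusted p = 0.0929). Of the hairpins tested, 62.9% of 229 in HCT116 and 57.8% of 180 in HEK293T changed arm ratio, with the 3p share higher in 16.2% and lower in 46.7% in HCT116, and higher in 27.8% and lower in 30% in HEK293T. The member hairpins that changed were miR-34a in HCT116 and miR-34a and miR-192 in HEK293T. For miR-192 the 3p share in HEK293T was 1.57% and 1.39% with WT and 2.61% and 3.96% with ΔdsRBD (log2 ratio 1.17 ± 0.34, adjusted p = 0.0060), on 29 to 72 reads of the 3p arm, and the call was lost without ΔdsRBD replicate 2 (log2 0.84, adjusted p = 0.143). In HCT116 the 3p share of miR-192, on 4 to 29 reads of that arm, was 4.65% and 0.721% with WT and 3.49% and 4.76% with ΔdsRBD and gave no call (log2 ratio 0.66 ± 0.63, adjusted p = 0.366). It was called without WT replicate 1 (log2 2.54, adjusted p = 0.0091) and stood at −0.15 without WT replicate 2. The 3p arms of miR-145 and miR-215 are not members. With them counted, miR-145 shifted toward 3p in HCT116, from 3.83% and 3.90% to 9.32% and 6.53% (log2 ratio 1.04 ± 0.29, adjusted p = 0.0036). In HEK293T miR-215 went from 3.67% and 5.69% with WT to 3.45% and 2.45% with ΔdsRBD, without a call (log2 ratio −0.72 ± 0.35, adjusted p = 0.0822). For miR-194 there the log2 ratio was −0.41 ± 0.52, also without a call (adjusted p = 0.503).

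**Figure D2:**
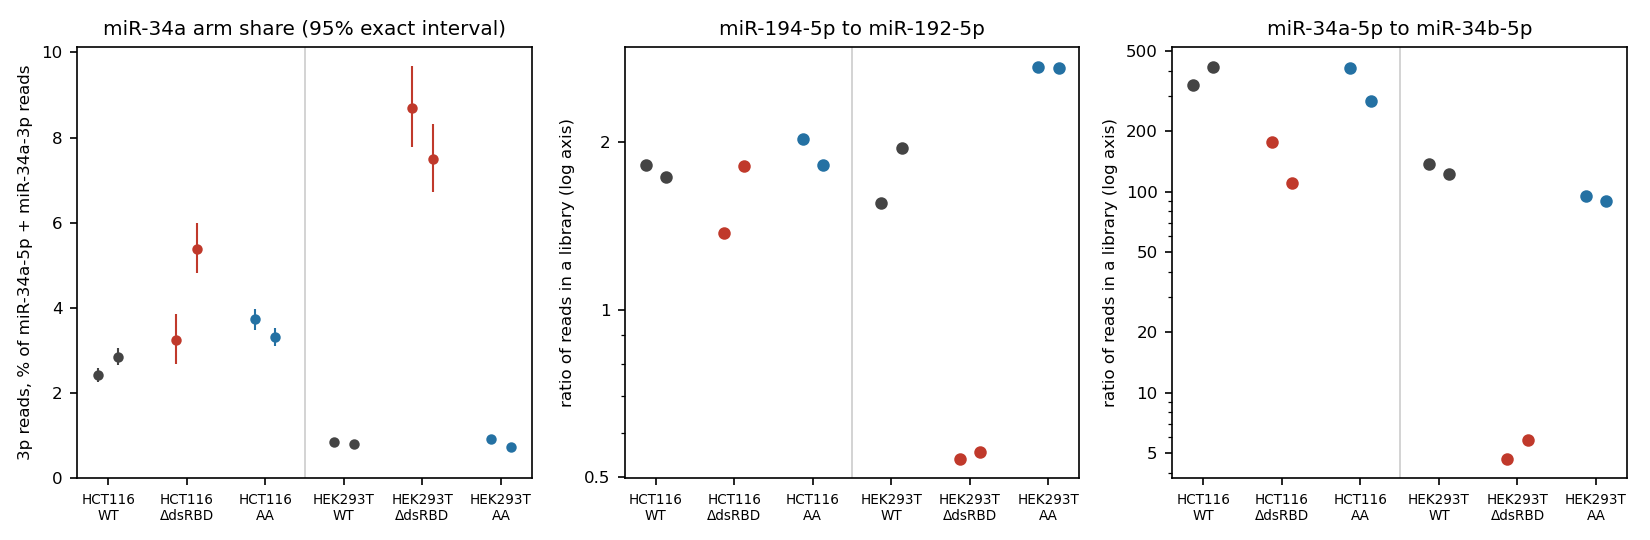
Quantities formed within a library, so free of any scale between libraries: the share of miR-34a reads from the 3p arm with 95% exact binomial intervals (left, linear axis from 0), and the read ratios of miR-194-5p to miR-192-5p (middle) and miR-34a-5p to miR-34b-5p (right), both on log axes. Points are libraries; the HEK293T ΔdsRBD libraries (red) stand at 8.69% and 7.50% in the left panel and below all other libraries in the others.

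On the TMM scale the relatives of miR-34a rose or gave no call in HEK293T, where miR-34a-5p fell, but miR-34c-5p and miR-449a fell per spike-in read (log2 −1.02 and −0.99, adjusted p = 0.0023 and 0.0031). miR-34b and miR-34c come from a single p53-responsive transcript on another chromosome, and miR-449a and miR-449b-5p carry the miR-34 seed. In HEK293T, miR-34b-5p went from 190 ± 38.3 CPM with WT to 560 ± 47.1 CPM with ΔdsRBD (SD, n = 2; log2 1.56, adjusted p = 3.47e-05), and miR-34b-3p from 59.4 ± 11.4 to 437 ± 63.3 CPM (log2 2.87, adjusted p = 6.03e-07). miR-34c-3p (log2 1.67, adjusted p = 0.000113), miR-449a (log2 0.46, adjusted p = 0.0481) and miR-449b-5p (log2 2.36, adjusted p = 3.66e-05) also rose, while miR-34c-5p, at 612 ± 118 and 827 ± 89.5 CPM, did not pass the test (adjusted p = 0.0556). Per spike-in read the rises of miR-34b-3p (log2 1.42, adjusted p = 0.000156) and miR-449b-5p (log2 0.91, adjusted p = 0.0327) passed, and miR-34b-5p (log2 0.10) and miR-34c-3p (log2 0.21) did not. In HCT116, edgeR called miR-449a higher (log2 0.55, adjusted p = 0.0122), though per spike-in read it was lower (log2 −1.25, adjusted p = 4.84e-06), and the other relatives gave no call on the TMM scale (log2 0.18 to 0.79). Reads of miR-34a-5p outnumbered those of miR-34b-5p by 138 and 123 to 1 in the HEK293T WT libraries and by 4.69 and 5.85 to 1 with ΔdsRBD, 24.8-fold lower by the means of the log2 ratios. The ratio to miR-34c-5p went from 42.6 and 38.3 to 3.65 and 3.46. In HCT116 the ratio to miR-34b-5p was 338 and 419 with WT and 178 and 110 with ΔdsRBD, 2.69-fold lower, and that to miR-34c-5p went from 144 and 152 to 52.2 and 50.4. None of these ratio groups overlapped, and an exact permutation test of 2 against 2 libraries gave p = 0.333, the smallest it can give.

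The miR-192, miR-194 and miR-215 group split in HEK293T. With ΔdsRBD, miR-192-5p stood at 1382 and 1338 CPM against 645 and 643 CPM with WT, and it rose 2.11-fold (log2 1.08 ± 0.16, adjusted p = 1.00e-04), though per spike-in read its change was below 0 (log2 −0.38). miR-215-5p, its seed twin from another locus, was at 989 and 1065 CPM against 251 and 276 CPM and rose 3.89-fold (log2 1.96 ± 0.17, adjusted p = 2.06e-06). Neither pair of groups overlapped, which held for 89% of names. miR-192-3p went from 10.3 and 9.06 CPM to 37.1 and 55.1 CPM, a 4.79-fold rise (log2 2.26 ± 0.31, adjusted p = 6.52e-05). Per 1000 spike-in reads it had 0.858 and 0.706 with WT and 1.15 and 1.60 with ΔdsRBD, and its rise was not called on either spike-in scale. miR-194-5p, which is encoded beside both miR-192 and miR-215, fell instead, from 1005 and 1256 CPM to 746 and 743 CPM (log2 −0.60 ± 0.17, adjusted p = 0.0081). That call was lost without ΔdsRBD replicate 1 (adjusted p = 0.0760) and with upper-quartile scaling (log2 −0.18, adjusted p = 0.384). miR-194-3p, at 23 and 35 reads with WT and 7 and 4 with ΔdsRBD, did not pass the test (log2 −1.02 ± 0.49, adjusted p = 0.0802).

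Read ratios within single libraries restate this split from the same counts, free of any scale. Reads of miR-194-5p exceeded those of miR-192-5p in HEK293T WT (ratios of 1.56 and 1.95) and were fewer with ΔdsRBD (0.540 and 0.555), 3.18-fold lower by the means of the log2 ratios. miR-215-5p gained on miR-192-5p, from ratios of 0.389 and 0.430 to 0.715 and 0.796. Neither set of groups overlapped, and the exact permutation p was 0.333, its smallest value.

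In HCT116 the same miRNAs gave no call with ΔdsRBD. miR-192-5p was at 149 and 166 CPM with WT and 171 and 139 CPM with ΔdsRBD, overlapping (log2 −0.03 ± 0.17, adjusted p = 0.875). miR-194-5p was at 272 and 287 CPM and 235 and 252 CPM, close but separate, as were 82.5% of names (log2 −0.19 ± 0.14, adjusted p = 0.239). Its ratio to miR-192-5p overlapped between the groups (1.82 and 1.73 with WT, 1.37 and 1.81 with ΔdsRBD). miR-192-3p and miR-215-5p had at most 29 and 13 reads in any HCT116 library and overlapped between WT and ΔdsRBD. miR-194-3p, with 1 to 11 reads, did not pass the filter on low counts in this line, so 7 of the 8 members were tested. A level under 3 reads, which is 3.10 CPM in the shallowest library, could not be measured.

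miR-145-5p, a miRNA best known from smooth muscle and for lowering MYC and stemness factors, was the other member that fell in HCT116. It stood at 979 and 985 CPM with WT and at 261 and 315 CPM with ΔdsRBD, without overlap, which held for 82.5% of names. It was 3.39-fold lower (log2 −1.76 ± 0.14, adjusted p = 1.63e-06). In HEK293T it had 27 and 38 reads with WT and 5 and 12 with ΔdsRBD, and its change did not pass the test (log2 −0.58 ± 0.45, adjusted p = 0.262). miR-143-3p, made from the same primary transcript, fell in both lines, by 2.00 ± 0.24 in HCT116 and by 3.07 ± 0.50 in HEK293T on the log2 scale (adjusted p = 3.60e-05 and 0.000228). In HEK293T it had 61 and 139 reads with WT and 3 and 6 with ΔdsRBD, near the floor of 3 reads. The size of that fall is therefore uncertain.

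**Figure D3:**
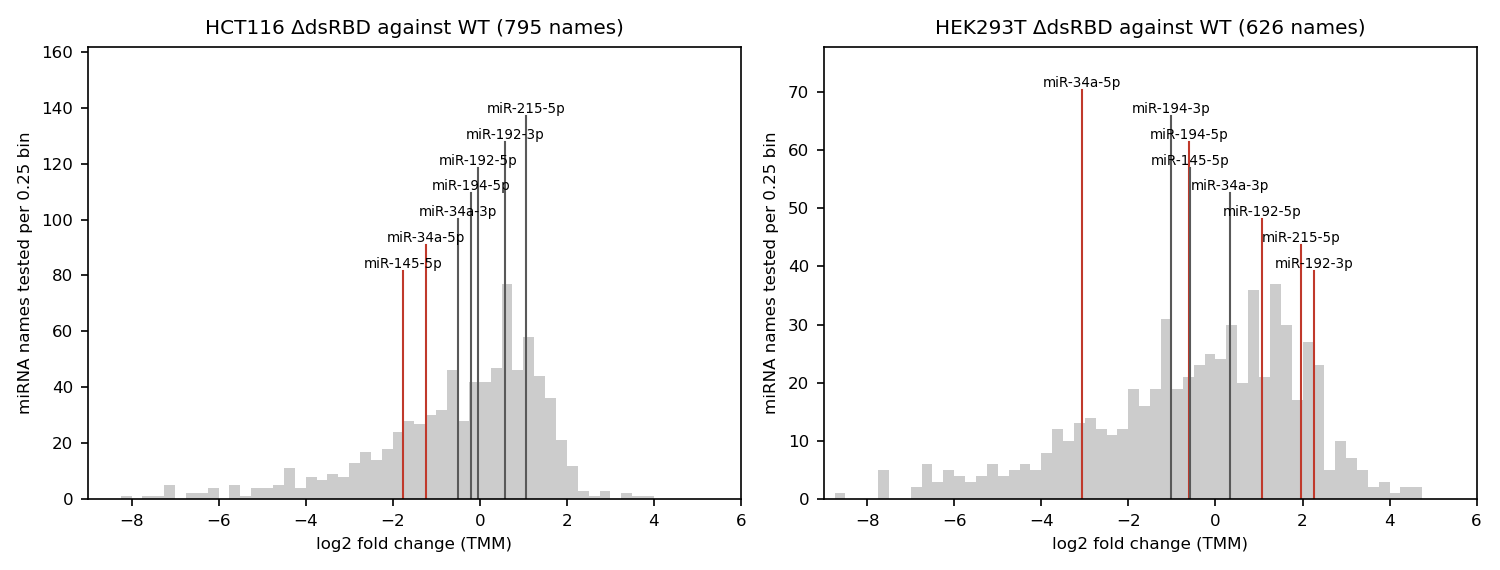
Histogram of log2 fold changes of ΔdsRBD against WT (TMM scale, bins of 0.25) over the 795 names tested in HCT116 (left) and the 626 in HEK293T (right), with a vertical line at each member tested; red lines passed an adjusted p of 0.05 and grey ones did not. miR-34a-5p at −3.07 in HEK293T and −1.24 in HCT116 lies below the middle of each distribution but not at its edge, at percentiles 15.9 and 28.4 of the names tested, counted to the middle of its own rank.

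With the AA form edgeR called 0 of the 7 members tested in HCT116, where 7.42% of names changed (1.26% higher, 6.16% lower), and the count was also 0 at an unadjusted p below 0.05 and by DESeq2. Per spike-in read 0 were higher and 3 lower, beside 0.3% and 34.0% of all names. miR-34a-5p was at 7506 and 7529 CPM against 7915 and 8582 CPM with WT (log2 −0.13 ± 0.11, adjusted p = 0.561), and miR-145-5p at 900.3 and 829.8 CPM against 979 and 985 CPM (log2 −0.18 ± 0.14, adjusted p = 0.504). On the TMM scale the AA libraries lay just below the WT libraries for both, without overlap, which held for 53.8% of names. In HEK293T, 3 of 8 members rose with AA and none fell, where 21.4% of names changed (6.23% higher, 15.2% lower). With upper-quartile factors 20.6% of all names were higher and 6.5% lower, and per spike-in read 1.3% and 30.4%.

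miR-215-5p was at 482 and 411 CPM in HEK293T with AA against 251 and 276 CPM with WT (log2 0.76 ± 0.17, adjusted p = 0.0097), and miR-194-5p at 1877 and 1922 CPM against 1005 and 1256 CPM (log2 0.75 ± 0.17, adjusted p = 0.0109). Both sets of groups were separate, as were those of 59.6% of names. miR-145-5p rose from 27 and 38 reads to 75 and 25, or from 9.56 and 11.1 CPM to 27.8 and 17.9 CPM (log2 1.18 ± 0.33, adjusted p = 0.0278), in a range of few reads. All 3 calls were lost per spike-in read (adjusted p = 0.160 to 0.421). The call of miR-145-5p was lost whichever library was left out (adjusted p = 0.0517 to 0.357), that of miR-194-5p without WT replicate 1 (0.0545) or AA replicate 2 (0.0570), and that of miR-215-5p without AA replicate 1 (0.0928). miR-34a-5p (25496 and 27660 CPM with AA, log2 0.11 ± 0.16, adjusted p = 0.697) and miR-192-5p (687 and 708 CPM, log2 0.11 ± 0.16, adjusted p = 0.678) did not pass the test. The ratio of miR-194-5p to miR-192-5p was 2.73 and 2.71 with AA against 1.56 and 1.95 with WT, so AA and ΔdsRBD lay on opposite sides of WT for this ratio.

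The arm share of miR-34a gave no call with AA. It was 0.913% and 0.725% in HEK293T, on either side of the WT libraries (log2 ratio −0.01 ± 0.20, adjusted p = 0.992). In HCT116 it was 3.73% and 3.32%, above both WT libraries (log2 0.43 ± 0.20, adjusted p = 0.198). With AA, edgeR called 0 member hairpins in either line, where 13.5% of hairpins changed in HCT116 (3p share higher in 4.8%, lower in 8.73%) and 10.6% in HEK293T (5.56% and 5%). The same edgeR test gave 1 in each line at an unadjusted p below 0.05, miR-34a in HCT116 and miR-194 in HEK293T, and a fit of the HCT116 WT and AA libraries alone called miR-34a (adjusted p = 0.0492).

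Set directly against ΔdsRBD, the AA libraries share samples with the comparisons above and give the same levels from the other side. In HCT116, 3 of 7 members were higher with AA and none lower, where 56.5% of names differed (29.6% higher, 26.9% lower) and 78.4% did not overlap. The higher ones were miR-34a-5p by 1.10 ± 0.11, miR-145-5p by 1.58 ± 0.14 and miR-34a-3p by 0.79 ± 0.21 on the log2 scale (adjusted p = 1.43e-05, 4.70e-06 and 0.0085). Per spike-in read 5 members were higher, and 59.9% of all names. In HEK293T, 3 of 8 were higher and 3 lower, where 73% of names differed (36.1% higher, 36.9% lower) and 87.7% did not overlap. miR-34a-5p was 9.07-fold higher with AA (log2 3.18 ± 0.18, adjusted p = 9.45e-08), followed by miR-145-5p (log2 1.76 ± 0.42, adjusted p = 0.0034) and miR-194-5p (log2 1.35 ± 0.17, adjusted p = 4.58e-05). miR-192-3p (log2 −1.83 ± 0.32), miR-215-5p (log2 −1.20 ± 0.17) and miR-192-5p (log2 −0.96 ± 0.16) were lower. Per spike-in read the split in HEK293T was 5 higher and 0 lower, and 51.4% against 15.8% among all names. Scaled to the total of spike-in reads, a setting chosen after seeing the data, it was 4 higher and 1 lower, and 46.2% against 20.9%. Between these HEK293T groups 20 of the 30 spike-ins differed among themselves, against 0 in HCT116, so the spike-in splits in HEK293T are uncertain.

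The difference between the lines was tested as a contrast over all 12 libraries. For ΔdsRBD it passed for 5 of 8 members, where 34.8% of the 844 names did (22.4% more positive in HEK293T, 12.4% more negative), and the median of all names was 0.34. miR-34a-5p fell further in HEK293T, by 1.53 ± 0.24 on the log2 scale (adjusted p = 2.99e-05). miR-192-5p (log2 difference 1.42 ± 0.26, adjusted p = 0.000165), miR-34a-3p (1.16 ± 0.30, adjusted p = 0.0042), miR-192-3p (2.00 ± 0.71, adjusted p = 0.0331) and miR-145-5p (1.49 ± 0.47, adjusted p = 0.0169) had a more positive change in HEK293T than in HCT116. The miR-192-3p value depended on 1 library, since it was 0.08 without HCT116 WT replicate 1, where this miRNA had 29 reads against 4 in replicate 2. That of miR-145-5p, which rests on 5 and 12 reads in HEK293T ΔdsRBD, was 0.92 without HEK293T ΔdsRBD replicate 2 (adjusted p = 0.409). miR-215-5p (1.21 ± 0.61, adjusted p = 0.137) and miR-194-5p (−0.11 ± 0.27, adjusted p = 0.796) did not pass. With library totals the split of the members was 1 positive and 2 negative, and of all names 11% and 23.3%. For AA, 1 of 8 members differed between the lines, miR-145-5p (1.48 ± 0.34, adjusted p = 0.0108), where 3.91% of names did (0.948% more positive in HEK293T, 2.96% more negative).

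Scaling to the 30 spike-ins replaced the assumption of an unchanged typical miRNA by that of equal spike-in per sample, and it moved the median of all names from −0.01 to −1.78 for ΔdsRBD in HCT116 and from −0.07 to −1.53 in HEK293T. For AA the medians moved from −0.03 to −0.63 in HCT116 and from −0.11 to −0.58 in HEK293T. When and in what amount spike-ins were added is not stated by the labels, and in HEK293T 17 of the 30 differed among themselves between ΔdsRBD and WT, against 0 in HCT116 (0 also at an unadjusted p below 0.05). Per 1000 spike-in reads, miR-34a-5p had 1914 and 2579 reads in HCT116 WT, 274 and 274.7 with ΔdsRBD and 1516 and 1485 with AA. In HEK293T it had 1880 and 2076 with WT, 86.7 and 89.3 with ΔdsRBD and 1397 and 1186 with AA. On this scale miR-34a-5p fell by 3.05 in HCT116 and by 4.52 in HEK293T (log2, adjusted p = 7.51e-24 and 2.58e-10), which is more than the median of all names in both lines. The HCT116 WT libraries lay further apart here than on the TMM scale, so the smaller p-value does not reflect closer replicates. It rests on a spread moderated across names.

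The rises of the seed twins with ΔdsRBD in HEK293T passed the test on the TMM scale and not per spike-in read. miR-192-5p had 53.9 and 50.1 reads per 1000 spike-in reads with WT and 43.0 and 38.8 with ΔdsRBD (log2 −0.38, adjusted p = 0.171), so its direction turned. miR-215-5p had 21.0 and 21.5 with WT and 30.8 and 30.9 with ΔdsRBD, still separate and higher, but without passing the test (log2 0.51, adjusted p = 0.0863). miR-194-5p fell on both scales, from 83.9 and 97.8 to 23.2 and 21.6 (log2 −2.06, adjusted p = 1.56e-06). In HCT116, where miR-192-5p and miR-194-5p gave no call on the TMM scale, both fell per spike-in read, by 1.84 and 1.99 (adjusted p = 3.00e-11 and 7.70e-13), close to the median of −1.78. The order of the members was the same on either scale, since a scale shifts all of them alike.

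**Figure D4:**
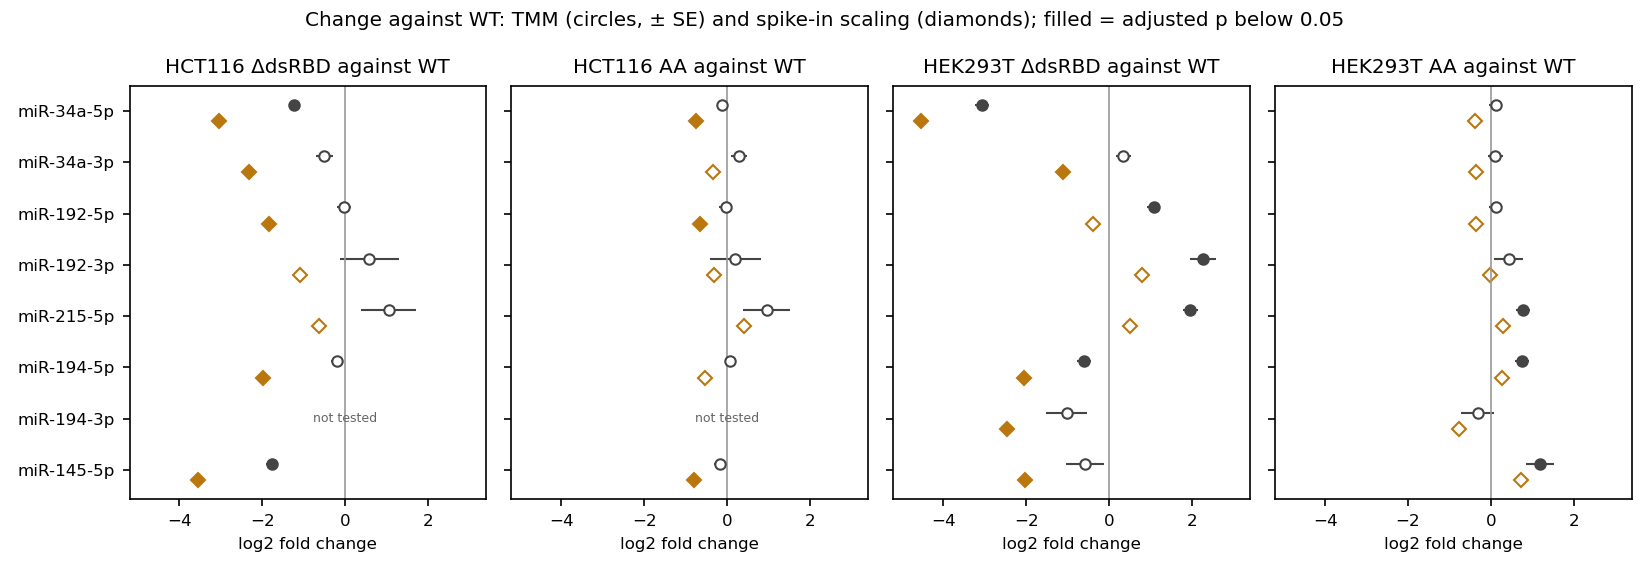
Log2 fold change of each member against WT in the 4 comparisons, on the TMM scale (grey circles with SE) and scaled to the spike-ins (brown diamonds); filled symbols passed an adjusted p of 0.05, and miR-194-3p was not tested in HCT116. The diamonds lie to the left of the circles throughout, and miR-34a-5p is far below 0 with ΔdsRBD on both scales in both lines.

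Another 28 miRNAs tied to p53 in the literature as direct targets, processing clients or neighbours were counted beside the members. With ΔdsRBD, 4 of the 26 tested rose and 12 fell in HCT116 (median log2 0.22, all names −0.01), where 28.1% of all names rose and 34.1% fell. In HEK293T 9 of 23 rose and 11 fell (median −0.56, all names −0.07), where 35.9% of all names rose and 39.6% fell. Per spike-in read these counts were 0 and 19 in HCT116 and 2 and 14 in HEK293T, and with upper-quartile factors 11 and 9 in HCT116 and 10 and 10 in HEK293T. Among those that fell in both lines were miR-107, from an intron of PANK1 (log2 −4.03 and −4.67), miR-29b-3p, which lowers collagen and DNA methyltransferase transcripts (log2 −4.85 and −3.44), and miR-141-3p of the epithelial miR-200 family (log2 −4.57 and −4.19). miR-15a-5p, which lowers BCL2, fell in HEK293T (log2 −2.75, adjusted p = 1.33e-07) and gave no call in HCT116 (log2 0.28, adjusted p = 0.0521; −1.52 per spike-in read), a difference between the lines of −2.72 ± 0.23 (adjusted p = 7.72e-09). The others that fell in both lines were miR-29a-3p (log2 −2.49 in HCT116 and −2.95 in HEK293T), miR-29c-3p (−2.04 and −1.11), miR-22-3p (−1.82 and −0.56), miR-16-5p (−0.60 and −1.19) and miR-143-3p. miR-1246 was called higher in both (log2 1.54 and 0.88). miR-23a-3p (log2 −0.54 and 0.97) and miR-149-5p (−0.42 and 1.36) were called lower in HCT116 and higher in HEK293T on the TMM scale, but all 4 values were below 0 per spike-in read. The remaining calls in HCT116 were miR-1915-3p (log2 −2.30) and miR-145-3p (−0.72), which were lower, and miR-149-3p (1.00), miR-22-5p (0.65) and miR-3189-3p (1.51), which were higher. In HEK293T the remaining calls were miR-15a-3p (log2 −1.39) and miR-16-1-3p (−1.64), which were lower, and miR-605-3p (3.78), miR-605-5p (0.84) and miR-215-3p (1.21), which were higher. Few reads lay behind some of these: miR-605-3p had at most 21 in any HEK293T library, and miR-3189-3p at most 10 in any HCT116 library. Per spike-in read every one of the 4 rises in HCT116 turned below 0, and in HEK293T those of miR-1246, miR-149-5p, miR-23a-3p, miR-215-3p and miR-605-5p did. With AA, edgeR called 0 of 26 in HCT116 (2 at an unadjusted p below 0.05, 0 by DESeq2), where 7.42% of all names were called. In HEK293T 2 of 23 rose and 2 fell, where 21.4% of all names were called. The 4 calls there compare with 10 at an unadjusted p below 0.05 and 8 by DESeq2, and with upper-quartile factors 6 rose and 0 fell. The 2 that rose were miR-34b-3p (log2 1.04, adjusted p = 0.0066) and miR-34c-3p (log2 0.85, adjusted p = 0.0322), and the 2 that fell were miR-107 (log2 −0.96, adjusted p = 0.0035) and miR-15a-5p (log2 −0.82, adjusted p = 0.0050). Per spike-in read 0 rose and 7 fell in HEK293T, and 0 and 9 in HCT116.

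The names most like a member over the 12 libraries were sought among 270 others with a mean of at least 100 CPM, by the root mean square difference of log2 CPM centred on the line. For miR-34a-5p these were miR-26a-5p (0.22), miR-148a-3p (0.27) and miR-93-3p (0.31), against a median of 1.18 for all candidates. miR-26a-5p had log2 fold changes with ΔdsRBD of −1.68 in HCT116 and −3.40 in HEK293T, beside −1.24 and −3.07 for miR-34a-5p. For miR-192-5p they were miR-500a-3p (0.15), miR-196a-5p (0.17) and miR-483-3p (0.19; median 0.77), and for miR-194-5p they were miR-92a-3p (0.24), miR-423-3p (0.24) and miR-30e-5p (0.25; median 0.88). The 12 points of each share their libraries and scaling factors, so the likeness is a description.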

How the data were processed

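The authors deposited 1 table of raw counts per library, with reads of every miRNA name and of 30 spike-in RNAs. Total RNA was extracted with TRIzol, per the labels' protocols. The submitters' processing notes name cutadapt, BWA and bedtools and the builds hg38 and mm10; versions, order, roles, miRNA annotation and the counting of reads that match several names are not stated in those sources.

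Testing used edgeR 4.0.16 with limma 3.58.1, run in R 4.3.3. Spike-in rows were left out of library sizes, low counts were filtered with filterByExpr (minimum count 10), TMM gave the scale, and the two-sided quasi-likelihood F test was run on group means over the 6 libraries of a line (3 residual degrees of freedom) or all 12 (6) for names listed in both lines, with Benjamini-Hochberg adjustment over all names at 0.05. Arm use was tested as arm by group, blocking on library, where each arm had 10 or more reads in 2 or more libraries. Alternatives were DESeq2 1.42.0, other scalings, no filter, left-out libraries and the replicate block. Replicate differences correlated between groups at −0.104 to 0.147, so equal numbers were not used as pairs; no libraries were identical. The scripts were tested on simulated counts. Sequences are from RefSeq, annotation from GENCODE v29, folds from ViennaRNA 2.7.2 (Python 3.11.15, matplotlib 3.10.9, scipy 1.17.1).

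The named miRNAs are the 8 members, the listed p53-linked and seed-sharing names that were called against WT, the other miR-34 relatives, and the 3 names closest to each of miR-34a-5p, miR-192-5p and miR-194-5p. Members and lists were chosen with earlier results of these data known. Depth limits what can be seen of members under 3 reads, which is 0.667 to 3.64 CPM (reads per 1000000 miRNA reads).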

Additional observations from a re-analysis of the deposited data

Results flagged for a closer look

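The effect of ΔdsRBD on 5 members differed between the cell lines by a direct test of the difference (edgeR contrast over 12 libraries, HEK293T minus HCT116). The log2 differences were −1.53 for miR-34a-5p, 1.16 for miR-34a-3p, 1.42 for miR-192-5p, 2.00 for miR-192-3p and 1.49 for miR-145-5p. Against the median of all names, 0.34, miR-34a-5p was the only one of the 5 on the negative side. The values of miR-192-3p and miR-145-5p rest on few reads and on single libraries, as given above.

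For AA the same test singled out miR-145-5p, with a log2 difference of 1.48. It had 25 to 75 reads in the HEK293T WT and AA libraries, and the call was lost without HEK293T WT replicate 1 (adjusted p = 0.0506) or AA replicate 1 (adjusted p = 0.186).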

How the results depend on the processing

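Of 650 recomputed values of the members, 537 kept their direction and side of the threshold, 54 were no longer past it, 28 came past it and 31 turned sign. The scale mattered most. Members called numbered 2 for HCT116 ΔdsRBD against WT, but 5 with either spike-in scale (the spike-in total was chosen after seeing the data) and 2 to 4 without a library. Of all names 34.1% were lower there with TMM, 75.2% with spike-in size factors and 76.0% with the spike-in total. Member calls numbered 0 for HCT116 AA (3 with spike-in size factors, 1 with the spike-in total), 3 for HCT116 AA against ΔdsRBD (5 with both) and 6 between the lines with WT (3 with both). On these scales in turn, 34.0% and 22.8% of all names were lower for HCT116 AA. For HCT116 AA against ΔdsRBD 59.9% and 66.7% were higher. Between the lines 10.1% were higher on both, and 68.4% and 69.2% lower. For HEK293T AA the 3 calls became 6 with upper-quartile factors, 0 with both spike-in scales, 1 without the low-count filter and 1 to 2 without a library. Of all names 6.2% were higher in the main fit, 20.6% with upper-quartile factors and 1.4% without that filter. Spike-in size factors and the spike-in total gave 1.3% and 0.3%. The 5 line differences called for ΔdsRBD became 3 with library totals (miR-34a-5p, miR-192-5p and, not called before, miR-194-5p), 3 with upper-quartile factors and 3 to 5 without a library, 3 being the count without HEK293T ΔdsRBD replicate 2. The 1 line difference called for AA became 2 with DESeq2 size factors or the DESeq2 Wald test, 0 with the spike-in total and 0 to 2 without a library. Of all names 0.9% were called positive in the main fit, 2.3% with DESeq2 size factors, 2.6% by the Wald test and 0.1% with the spike-in total. Arm calls went from 0 to 1 in HCT116 AA with the compared groups only. They went from 2 to 1 in HEK293T ΔdsRBD with at least 50 reads, where miR-192 did not pass the filter and was not tested. Without a library, the log2 arm change with ΔdsRBD was 0.31 to 1.07 for miR-34a in HCT116. For miR-192 in HEK293T it was 0.84 to 1.46.

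Turned values among those the text reports were, on the log2 scale, these. For ΔdsRBD in HCT116, miR-34a-3p stood at 0.038 and miR-194-5p at 0.34 with library totals, miR-194-5p at 0.10 with upper-quartile factors, and miR-192-5p at 0.49 (adjusted p = 0.0222), 0.27 and, without a library, −0.32 to 0.027. For AA in HCT116, miR-34a-5p stood at 0.044 with library totals and 0.0036 with upper-quartile factors. For ΔdsRBD in HEK293T, miR-34a-3p stood at −1.11 and −1.08 and miR-192-5p at −0.38 and −0.35 on the spike-in scales. For AA in HEK293T, miR-34a-5p stood at −0.38, −0.61 and, unfiltered, −0.015, and miR-192-5p at −0.37, −0.61 and −0.0075; against ΔdsRBD, miR-192-5p stood at 0.0065 with spike-in size factors. Between the lines with WT, miR-34a-5p stood at −0.15 and −0.18 on the spike-in scales and miR-34a-3p at 0.073 with library totals, 0.24 with upper-quartile factors and −0.41 to 0.094 without a library. The line difference of miR-194-5p for ΔdsRBD was −0.32 to 0.22 without a library, and the arm change of miR-34a with AA in HEK293T was −0.18 to 0.15 without a library. The arm change of miR-192 was −0.15 to 2.54 with ΔdsRBD and −0.57 to 2.12 with AA in HCT116, and that of miR-194 with ΔdsRBD in HEK293T −0.97 to 0.030 without a library. The cause was not tested. Of 30 member changes against WT, 24 were below 0 on either spike-in scale. The medians of all names were below 0 as well. With spike-in size factors they were −1.78 for ΔdsRBD and −0.63 for AA in HCT116, and −1.53 and −0.58 in HEK293T.

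With the replicate block, the counts of members were 2, 0 and 3 in HCT116, 5, 3 and 6 in HEK293T, 6 between the lines, 4 for the ΔdsRBD difference (miR-192-3p lost, adjusted p = 0.0657) and 1 for the AA difference; the numbers do not pair the libraries. In the same order, the block gave 478, 46 and 421 calls among 795 names in HCT116 and 480, 155 and 461 among 626 in HEK293T. Among 844 names it gave 547 between the lines, 281 for the ΔdsRBD difference and 29 for the AA difference. Among all names without the block, HCT116 AA gave 59 calls, but 34 with upper-quartile factors, 272 and 186 on the spike-in scales and 10 and 23 without either AA library. HEK293T AA gave 134, but 292 with the spike-in total, 88 without WT replicate 1 and 54 without AA replicate 2. The AA line difference gave 33, but 78 with library totals and 50 with the spike-in total. Arm calls with AA were 31 in HCT116 (14 to 17 without a library) and 19 in HEK293T (10 without WT replicate 1).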
